A study of Mus musculus with 12 samples.

Results

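The genes described here are 33 genes of the integrated stress response and of amino acid supply, taken by name from the count table of a study of EPOP in mouse cells. They comprise 8 stress transcription factors and their regulators, 6 stress effectors, 5 enzymes of serine synthesis and mitochondrial one-carbon metabolism, 7 enzymes that make or convert other amino acids, and 7 amino acid transporters. All 33 were found among 19630 named features, and all 33 passed the filter on low counts that left 13879 genes for testing.

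In the integrated stress response, kinases that sense amino acid shortage, unfolded protein in the endoplasmic reticulum, haem shortage or double-stranded RNA phosphorylate the translation factor eIF2. Most protein synthesis then falls while translation of the transcription factor ATF4 rises. ATF4 pairs with C/EBP proteins on a composite DNA element and raises genes for amino acid synthesis, amino acid uptake and tRNA charging, together with feedback inhibitors such as Trib3 and Ppp1r15a. Pluripotent mouse cells are known to depend on amino acid and one-carbon metabolism for growth. RNA levels alone were measured, so neither eIF2 phosphorylation nor ATF4 protein is known from these data.

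The 4 groups were EpiLCs that re-express mutant EPOP, EpiLCs that re-express wild-type (WT) EPOP, mESCs that re-express mutant EPOP and mESCs that re-express WT EPOP, with 3 libraries each. mESCs are mouse embryonic stem cells, here of the E14 line, held in the naive state by 2i/LIF medium (the MEK inhibitor PD0325901, the GSK3 inhibitor CHIR99021 and LIF). EpiLCs are epiblast-like cells made from them with activin A, bFGF and KSR on fibronectin. EPOP associates with Polycomb repressive complex 2 (PRC2), and the series asks how EPOP limits chromatin targeting of the PRC2.1 form. The mutation is not specified in the labels, both genotypes carry a re-expressed EPOP, and cells lacking EPOP or the parental line were not analysed here. How many clones stand behind each genotype is unstated. Columns of the count table that are not WT bear a short code of unstated meaning. They were read as mutant, the single other genotype in the labels, and every direction below rests on that reading. EpiLC medium held more GlutaMAX, a stable source of glutamine, and less β-mercaptoethanol than mESC medium, so cell state and medium cannot be told apart.

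Depth was 7714164 to 10652151 counts per library, and no library stood apart from its group. Epop RNA was 207 ± 9.42 CPM (counts scaled to effective library size) in mutant EpiLCs and 209 ± 3.34 CPM in WT EpiLCs, and 469 ± 6.16 CPM in mutant mESCs and 473 ± 10.8 CPM in WT mESCs (SD, n = 3 each). Summed over 12 genes that mark naive cells, expression was 379 to 384 CPM in mutant EpiLCs, against 680 to 694 CPM in WT EpiLCs. In mESCs the same sum was 5190 to 5280 CPM with mutant EPOP and 5410 to 5620 CPM with WT EPOP, and no naive marker was at 0 in any group. Over 9 markers of the formative epiblast the sums were 1690 to 1710 CPM in mutant EpiLCs and 1560 to 1600 CPM in WT EpiLCs. Endoderm markers, 7 genes, summed to 18.3 to 22.7 CPM in mutant EpiLCs and 45.3 to 48.4 CPM in WT EpiLCs. Neuroectoderm markers, 5 genes, summed to 287 to 313 CPM in mutant EpiLCs and 229 to 242 CPM in WT EpiLCs, and to 44.3 to 58.7 CPM in mutant mESCs and 80.3 to 87.8 CPM in WT mESCs. Mesoderm markers, 6 genes, summed to 38.2 to 40.9 CPM in mutant mESCs and 25.8 to 31.3 CPM in WT mESCs. Trophoblast markers, also 6 genes, summed to 30.2 to 31.1 CPM in mutant EpiLCs and 25.9 to 29.2 CPM in WT EpiLCs, and fibroblast markers, 7 genes, to at most 8.55 CPM in any library. Markers of 2-cell-like cells, also 7 genes, summed to 21.7 to 23.4 CPM in mutant EpiLCs, 75.4 to 93.7 CPM in WT EpiLCs, 6.35 to 9.37 CPM in mutant mESCs and 48.3 to 55.4 CPM in WT mESCs. Mutant and WT EpiLCs thus differed in markers of the naive state and of other cell types as well as in the genes below, and the part of these differences in the results was not tested. In such bulk libraries, fewer cells of one kind and less RNA per cell cannot be told apart.

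Promoter windows of these genes were searched for the composite element that ATF4 and C/EBP proteins bind, because many of the genes are reported ATF4 targets. The letters searched were TGATGNAA on both strands, in windows of 250 bases before to 50 bases after each RefSeq gene start in build GRCm38.p6. They were found in 10 of the 30 genes that have such a window (33.3%), against 2.66% of 10238 tested genes with a window and 4.51% of all 27025 genes with one. Cth, Slc7a3 and Slc7a5 have no window in the table used. The holders were Atf3, Nupr1, Trib3, Chac1, Vldlr, Asns, Pck2, Pycr1, Slc7a11 and Slc1a4. The E box CACGTG was in 3 of the 30 genes (10.0%, against 11.9% of tested genes) and the AP-1 core TGACTCA in 2 of the 30 (6.67%, against 4.25%), both searched on both strands. A match describes letters only and is not a measured binding site.

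The 250 bases before the start are shown for the 4 holders whose RNA was lower in mutant cells of both states, to set the element beside genes that moved together, and for 2 holders whose RNA passed the test in neither state. Capitals mark the element, which reads TTGCATCA where it lies on the strand opposite to the gene. The Chac1 stretch is chr2:119350992-119351241 on the forward strand, that of Asns chr6:7693210-7693459 on the reverse strand, that of Nupr1 chr7:126625471-126625720 on the reverse strand and that of Vldlr chr19:27216770-27217019 on the forward strand. The 2 genes called in neither state are Slc7a11 at chr3:50443614-50443863 on the reverse strand, which holds the element on both strands, and Pycr1 at chr11:120643749-120643998 on the reverse strand.
Chac1: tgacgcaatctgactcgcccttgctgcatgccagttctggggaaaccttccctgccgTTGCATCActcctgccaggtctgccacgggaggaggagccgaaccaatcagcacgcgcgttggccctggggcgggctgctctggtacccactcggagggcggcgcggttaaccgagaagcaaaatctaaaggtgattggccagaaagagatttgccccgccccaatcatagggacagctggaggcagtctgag
Asns: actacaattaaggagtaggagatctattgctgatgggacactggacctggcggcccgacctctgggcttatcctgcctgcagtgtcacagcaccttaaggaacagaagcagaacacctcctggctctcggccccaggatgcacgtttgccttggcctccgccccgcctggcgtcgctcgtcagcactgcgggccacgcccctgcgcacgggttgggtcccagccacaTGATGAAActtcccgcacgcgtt
Nupr1: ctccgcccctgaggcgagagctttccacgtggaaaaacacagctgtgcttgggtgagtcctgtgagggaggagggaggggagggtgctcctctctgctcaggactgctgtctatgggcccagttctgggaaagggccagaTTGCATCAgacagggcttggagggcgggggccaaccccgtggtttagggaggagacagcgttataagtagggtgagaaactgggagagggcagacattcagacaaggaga
Vldlr: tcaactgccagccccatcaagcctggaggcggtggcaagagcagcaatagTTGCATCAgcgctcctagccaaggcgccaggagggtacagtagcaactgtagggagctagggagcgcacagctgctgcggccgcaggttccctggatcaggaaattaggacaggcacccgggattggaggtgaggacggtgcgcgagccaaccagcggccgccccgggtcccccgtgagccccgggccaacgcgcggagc
Slc7a11: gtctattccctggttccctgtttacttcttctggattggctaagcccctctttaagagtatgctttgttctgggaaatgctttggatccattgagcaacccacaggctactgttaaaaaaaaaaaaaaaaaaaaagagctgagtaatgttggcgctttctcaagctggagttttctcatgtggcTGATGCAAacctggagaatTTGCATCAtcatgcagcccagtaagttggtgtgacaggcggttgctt
Pycr1: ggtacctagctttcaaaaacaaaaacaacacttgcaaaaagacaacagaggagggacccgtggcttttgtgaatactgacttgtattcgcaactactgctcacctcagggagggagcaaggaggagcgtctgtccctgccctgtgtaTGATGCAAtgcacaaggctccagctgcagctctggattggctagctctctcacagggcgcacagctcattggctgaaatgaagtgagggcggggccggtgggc
In Asns the fifth to eighth letters of the element are GAAA, in Trib3 and Pck2 they are GTAA, and in the other 7 holders they are GCAA.

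With mutant EPOP in EpiLCs, 18 of the 33 genes were lower, 1, Atf5, was higher and 14 were not called at an adjusted p under 0.05 (edgeR quasi-likelihood test, Benjamini-Hochberg adjustment over all tested genes). That is 54.5% lower and 3.03% higher, against 8.82% lower and 7.02% higher among all tested genes. The decreases reached from the glutathione-degrading enzyme Chac1, at -1.21 on the log2 scale, to the folate enzyme Mthfd2, at -0.13. The median log2 fold change over the 33 genes was -0.22, with a range of -1.21 to 0.28, where the median over all tested genes was -0.00087. Values of the 3 mutant libraries lay wholly below those of the 3 WT libraries for 21 genes (63.6%, against 16.0% of all tested genes) and wholly above them for Atf5 (14.4% of all tested genes). Since the genes were chosen with earlier results of these data known, these shares describe the group and are not independent support for a direction.

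In mESCs 10 of the genes were lower with mutant EPOP and 2 were higher, which is 30.3% and 6.06% of the 33, against 10.1% lower and 8.40% higher among all tested genes. The share that was higher lay below that of all tested genes. The 2 higher genes were the cationic amino acid transporters Slc7a1 and Slc7a3. Their count was 1 when mutant mESC replicate 1, WT mESC replicate 2 or WT mESC replicate 3 was left out. The median log2 fold change over the 33 genes was -0.080, against -0.00021 over all tested genes. Groups did not overlap for 15 genes with lower values in mutant mESCs (45.5%, against 16.4% of all tested genes) and for 6 with higher values (18.2%, against 15.4%).

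**Figure D1:**
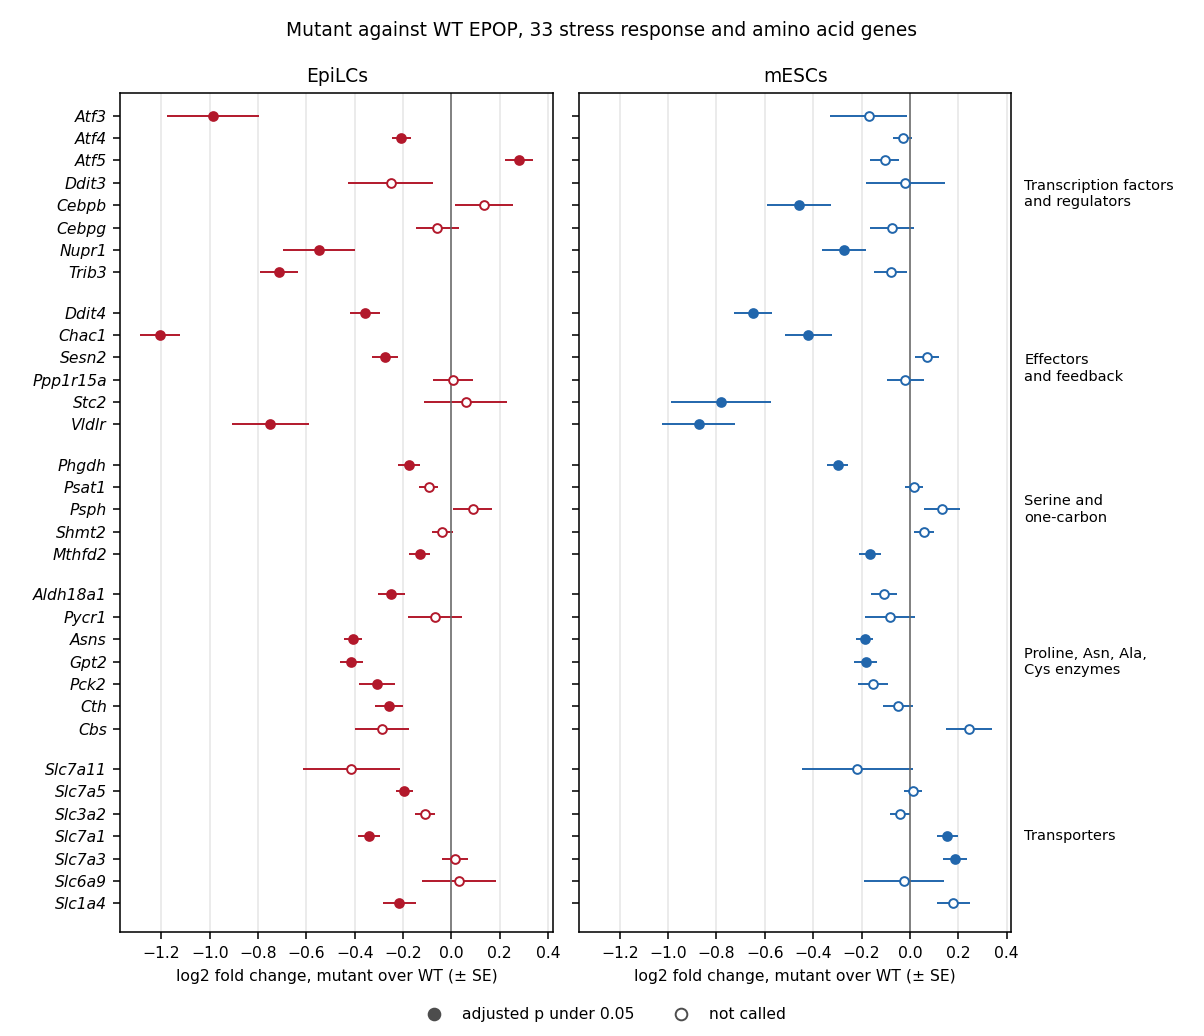
Log2 fold change of mutant over WT EPOP in EpiLCs (left) and mESCs (right) for each of the 33 genes, ordered by role, with standard errors. Filled points passed an adjusted p of 0.05, and in EpiLCs 18 of the 19 filled points lie left of 0, with Chac1 the farthest at -1.21.

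In both states 8 genes were lower with mutant EPOP: the regulator Nupr1, the effectors Ddit4, Chac1 and Vldlr, and the enzymes Phgdh, Mthfd2, Asns and Gpt2. This is 24.2% of the genes, against 2.95% of all tested genes. A further 9 genes were called lower in EpiLCs and not in mESCs. Among them, the effects of Aldh18a1, Pck2 and Cth were not called as different between the states. Cebpb and Stc2 were lower in mESCs and not called in EpiLCs, Slc7a3 was higher in mESCs and not called in EpiLCs, and Atf5 was higher in EpiLCs and not called in mESCs. Slc7a1 was called in opposite directions. The remaining 11 genes were called in neither state. Shares of all tested genes with these other patterns were not taken, so these counts are descriptions. Across the 33 genes the mutant effects in EpiLCs and in mESCs, which come from separate libraries, had a Pearson r of 0.29 and a Spearman rho of 0.32, with 21 of 33 of the same sign; across all tested genes r was 0.28. Genes are not independent replicates, and these values are descriptions.

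The difference between the mutant effect in EpiLCs and that in mESCs was itself tested as an interaction. It was negative for 11 of the 33 genes (33.3%) and positive for 4 (12.1%), against 5.05% negative and 4.68% positive among all tested genes (9.73% in either direction). A negative difference means that the mutant effect was further towards lower expression in EpiLCs. The 11 were Atf3, Atf4, Trib3, Chac1, Sesn2, Asns, Gpt2, Cbs, Slc7a5, Slc7a1 and Slc1a4, and the 4 were Atf5, Cebpb, Ddit4 and Stc2. The count of 4 was 2 when mutant mESC replicate 1, WT mESC replicate 1, WT mESC replicate 2 or WT EpiLC replicate 2 was left out.

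**Figure D2:**
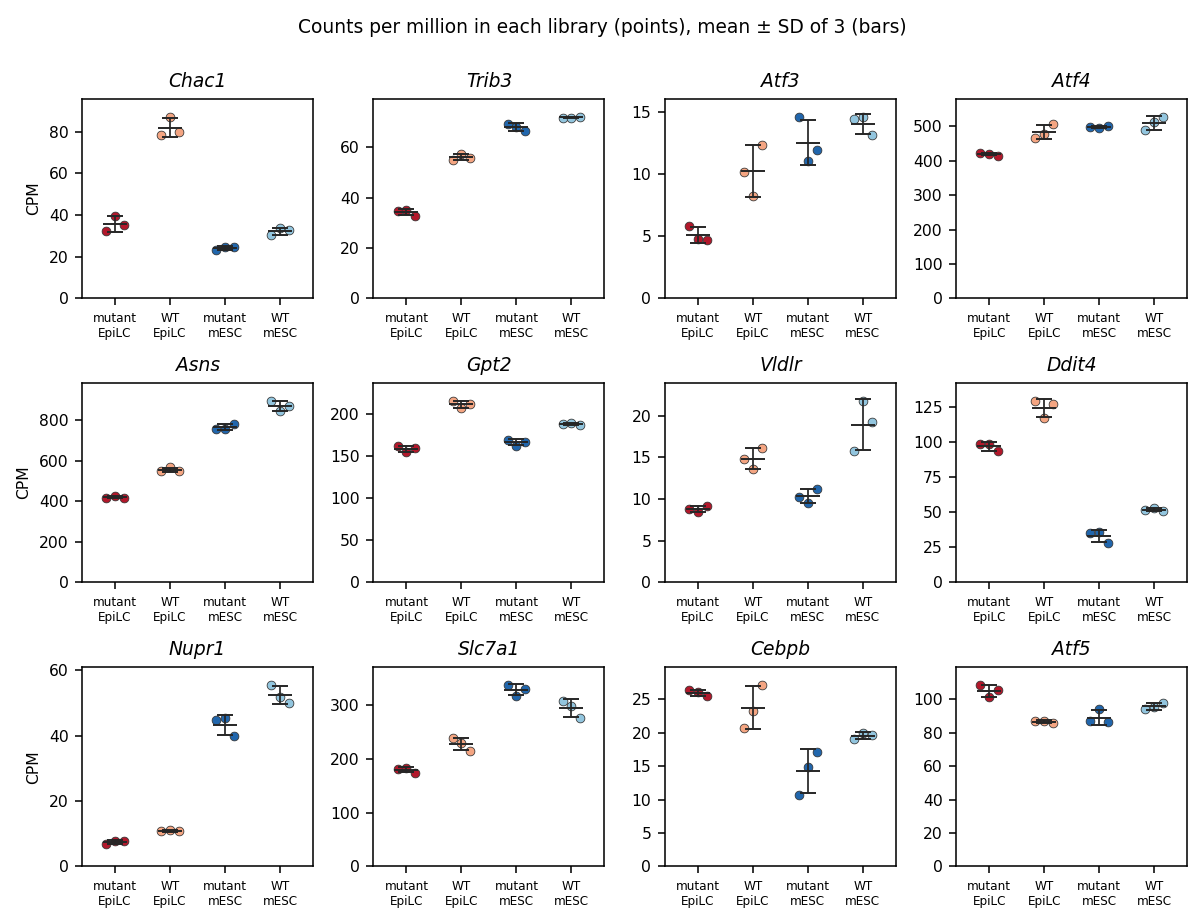
CPM of 12 of the genes in each library, with the mean and SD of the 3 libraries of a group; in each panel mutant EpiLCs are followed by WT EpiLCs, mutant mESCs and WT mESCs, and each vertical axis starts at 0. For Chac1 the mutant EpiLC points lie at 32.4 to 39.7 CPM and the WT EpiLC points at 78.6 to 87.2 CPM.

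Among the transcription factors, Atf4 RNA was lower in mutant EpiLCs. It was 422, 419.8 and 416 CPM in mutant EpiLCs, against 466, 477 and 508 CPM in WT EpiLCs. In mESCs it was 499.8, 497 and 502 CPM with mutant EPOP, against 489.6, 512 and 528 CPM with WT EPOP. The EpiLC groups did not overlap and the mESC groups did. The log2 fold change was -0.21 ± 0.039 (adjusted p = 1.64e-05) in EpiLCs and -0.03 ± 0.039 (adjusted p = 0.66) in mESCs, and the difference of the 2 effects was -0.18 ± 0.055 (adjusted p = 0.0214). That difference lost its call without WT mESC replicate 1, mutant EpiLC replicate 3 or WT EpiLC replicate 3, with an adjusted p of up to 0.0986.

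Atf3, a stress-inducible factor of the same family that is itself an ATF4 target, was present at 5.81, 4.75 and 4.70 CPM in mutant EpiLCs, against 10.1, 8.17 and 12.3 CPM in WT EpiLCs. In mESCs it was 14.6, 11.04 and 11.9 CPM with mutant EPOP and 14.4, 14.6 and 13.1 CPM with WT EPOP. All mutant EpiLC libraries were lower than every WT EpiLC library, whereas the mESC groups overlapped. Its log2 fold change was -0.99 ± 0.19 (adjusted p = 2.87e-05) in EpiLCs and -0.17 ± 0.16 (adjusted p = 0.517) in mESCs. The difference, -0.81 ± 0.25 (adjusted p = 0.0197), was not called without mutant mESC replicate 1, mutant EpiLC replicate 2 or 3, or WT EpiLC replicate 3, with an adjusted p of up to 0.104.

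Trib3 encodes a pseudokinase that ATF4 induces and that restrains ATF4 in turn. It had 34.5, 35.2 and 32.8 CPM in mutant EpiLCs, against 54.96, 57.3 and 55.8 CPM in WT EpiLCs, and 69.4, 68.1 and 66.4 CPM in mutant mESCs, against 71.7, 71.8 and 72.1 CPM in WT mESCs. Its mutant libraries were the lower ones in both states without overlap, by a wide margin in EpiLCs and a narrow one in mESCs. On the log2 scale the mutant effect was -0.71 ± 0.079 (adjusted p = 2.35e-13) in EpiLCs and -0.08 ± 0.07 (adjusted p = 0.477) in mESCs, which did not pass the test, and the difference was -0.63 ± 0.1 (adjusted p = 1.42e-06).

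Nupr1, a small chromatin-binding stress protein, had 6.75, 7.79 and 7.91 CPM in mutant EpiLCs and 10.7, 11.1 and 10.8 CPM in WT EpiLCs. In mESCs it had 44.7, 45.6 and 39.9 CPM with mutant EPOP and 55.5, 51.9 and 49.97 CPM with WT EPOP. Neither pair of groups overlapped, and both log2 fold changes were negative, at -0.55 ± 0.15 (adjusted p = 0.00407) in EpiLCs and -0.27 ± 0.091 (adjusted p = 0.0233) in mESCs. The mESC call was lost without mutant mESC replicate 3, WT mESC replicate 1 or WT mESC replicate 2, with an adjusted p of up to 0.156.

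Atf5, a relative of Atf4 that is also translated under stress, went the other way in EpiLCs. Its level was 108, 101 and 105 CPM in mutant EpiLCs, above 87.3, 86.8 and 85.8 CPM in WT EpiLCs, and 86.8, 94.02 and 86.2 CPM in mutant mESCs, against 94.1, 95.2 and 98.02 CPM in WT mESCs. The groups were separate in both states, with mutant values the higher in EpiLCs and the lower in mESCs. Mutant over WT, the log2 value was 0.28 ± 0.059 (adjusted p = 0.000163) in EpiLCs and -0.10 ± 0.06 (adjusted p = 0.235) in mESCs, which did not pass the test, with a difference of 0.38 ± 0.084 (adjusted p = 0.000476). Exons of Atf5 share 4.11% of their bases with Nup62 and Il4i1 on the opposite strand. The sources used here do not give whether reads were counted by strand, so reads of such overlaps cannot be told apart.

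Cebpb, a partner of ATF4 on the composite element, had 26.4, 26.2 and 25.5 CPM in mutant EpiLCs, against 20.7, 23.3 and 27.1 CPM in WT EpiLCs, and 10.7, 14.9 and 17.2 CPM in mutant mESCs, against 19.1, 20.01 and 19.6 CPM in WT mESCs. The EpiLC groups overlapped and the mESC groups did not. This gave a log2 fold change of -0.46 ± 0.13 (adjusted p = 0.00674) in mESCs and 0.13 ± 0.12 (adjusted p = 0.507) in EpiLCs, with a difference of 0.59 ± 0.18 (adjusted p = 0.016). The mESC call rested on mutant mESC replicate 1, the lowest of the libraries, without which the adjusted p was 0.156. The difference was also lost without that library or without WT EpiLC replicate 1, with an adjusted p of up to 0.144. Tmem189 covers 20.7% of the exon bases of Cebpb on the opposite strand. Cebpg, another C/EBP partner, and Ddit3, the pro-apoptotic factor CHOP, were called in neither state, with log2 fold changes of -0.059 and -0.25 in EpiLCs and -0.076 and -0.019 in mESCs.

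The effectors held the largest change. Chac1 encodes an enzyme that breaks down glutathione and is among the sharpest ATF4 responders. It had 32.4, 39.7 and 35.1 CPM in mutant EpiLCs, against 78.6, 87.2 and 80.1 CPM in WT EpiLCs, a log2 fold change of -1.21 ± 0.082 (adjusted p = 2.65e-26). In mESCs it had 23.03, 24.6 and 24.8 CPM with mutant EPOP, against 30.4, 33.5 and 33.02 CPM with WT EPOP, a log2 fold change of -0.42 ± 0.096 (adjusted p = 0.000441). The groups were separate in both states, and the mutant EpiLC libraries lay near the WT mESC level. The effect was larger in EpiLCs, with a difference of -0.79 ± 0.13 (adjusted p = 6.4e-07).

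Ddit4 (also called REDD1) restrains mTORC1 under stress. Its level was 98.8, 98.5 and 93.6 CPM in mutant EpiLCs, against 129, 117 and 127 CPM in WT EpiLCs, and 34.9, 35.9 and 27.96 CPM in mutant mESCs, against 51.8, 52.8 and 50.6 CPM in WT mESCs. It was lower in every mutant library than in any WT library of its state, by -0.36 ± 0.062 (adjusted p = 2.33e-06) in EpiLCs and -0.65 ± 0.079 (adjusted p = 1.48e-11) in mESCs. The difference of 0.29 ± 0.1 (adjusted p = 0.0457) stood close to the threshold. It was not called by DESeq2, by limma-voom, without the filter on low counts, or without any of 6 single libraries (mutant mESC replicate 3, WT mESC replicates 1 and 2, mutant EpiLC replicates 1 and 2, and WT EpiLC replicate 2), with an adjusted p of up to 0.317.

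Vldlr, a lipoprotein receptor that ATF4 induces, had 8.81, 8.40 and 9.17 CPM in mutant EpiLCs and 14.8, 13.6 and 16.1 CPM in WT EpiLCs, and 10.2, 9.58 and 11.2 CPM in mutant mESCs and 15.7, 21.8 and 19.3 CPM in WT mESCs. Mutant values were below WT values in both states without overlap. The fitted log2 effect was -0.75 ± 0.16 (adjusted p = 0.000152) in EpiLCs and -0.87 ± 0.15 (adjusted p = 1.82e-06) in mESCs, and the difference of 0.12 ± 0.22 (adjusted p = 0.816) was not called.

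Sesn2, a leucine-binding inhibitor of mTORC1, had 113, 103 and 116 CPM in mutant EpiLCs, against 133, 133 and 135 CPM in WT EpiLCs, and 168, 168 and 181 CPM in mutant mESCs, against 162, 173 and 157 CPM in WT mESCs. The EpiLC groups were separate and the mESC groups overlapped. The fitted effect of mutant EPOP was -0.27 ± 0.054 (adjusted p = 3.87e-05) in EpiLCs and 0.07 ± 0.051 (adjusted p = 0.37) in mESCs, with a difference of -0.34 ± 0.074 (adjusted p = 0.000319). Stc2, a secreted stress-induced glycoprotein, had 10.97, 11.3 and 12.2 CPM in mutant EpiLCs, against 13.04, 9.81 and 10.2 CPM in WT EpiLCs, and 4.005, 4.89 and 4.57 CPM in mutant mESCs, against 7.98, 8.16 and 6.94 CPM in WT mESCs. Its groups were separate in mESCs alone, where the log2 fold change was -0.78 ± 0.21 (adjusted p = 0.00291), against 0.058 ± 0.17 (adjusted p = 0.87) in EpiLCs. The difference, 0.84 ± 0.27 (adjusted p = 0.0285), lost its call without any of 6 single libraries (mutant mESC replicate 1, WT mESC replicates 1 and 2, mutant EpiLC replicate 3, and WT EpiLC replicates 2 and 3), with an adjusted p of up to 0.0803. Ppp1r15a (GADD34), the feedback subunit that directs a phosphatase to eIF2, was called in neither state, at 0.0048 ± 0.083 in EpiLCs and -0.018 ± 0.079 in mESCs on the log2 scale.

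Of the 5 enzymes of serine synthesis and mitochondrial one-carbon metabolism, Phgdh and Mthfd2 were lower in mutant cells of both states (2.95% of all tested genes were lower in both). Phgdh, which commits glycolytic carbon to serine, had 224, 248 and 234 CPM in mutant EpiLCs, against 256, 278 and 262 CPM in WT EpiLCs, and 214, 226 and 221 CPM in mutant mESCs, against 278, 269 and 268 CPM in WT mESCs. Both pairs of groups were separate, with log2 fold changes of -0.17 ± 0.045 (adjusted p = 0.00223) in EpiLCs and -0.30 ± 0.045 (adjusted p = 4.4e-08) in mESCs. Without mutant EpiLC replicate 1 or WT EpiLC replicate 2 the EpiLC call was lost, with an adjusted p of up to 0.0568. Mthfd2, the mitochondrial folate enzyme, had 289, 279.6 and 276 CPM in mutant EpiLCs, against 301, 306 and 318 CPM in WT EpiLCs, and 225, 217 and 227 CPM in mutant mESCs, against 256, 243 and 251 CPM in WT mESCs. Again the mutant libraries were the lower ones in both states, by -0.13 ± 0.043 (adjusted p = 0.0222) in EpiLCs and -0.16 ± 0.044 (adjusted p = 0.00314) in mESCs. The EpiLC call was lost without mutant EpiLC replicate 2 or 3 or WT EpiLC replicate 2 or 3, with an adjusted p of up to 0.142. Psat1 and Psph, the later steps of serine synthesis, and Shmt2, which converts serine to glycine in mitochondria, were called in neither state. Their log2 fold changes were -0.094, 0.088 and -0.037 in EpiLCs and 0.017, 0.13 and 0.059 in mESCs. For Psat1 the mutant EpiLC libraries also lay below the WT EpiLC libraries without overlap (adjusted p = 0.0843). Cct6a covers 10.4% of the exon bases of Psph on the opposite strand.

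Of the 7 other enzymes, 5 were lower in mutant EpiLCs (8.82% of all tested genes) and 2 of these also in mutant mESCs (2.95% of all tested genes were lower in both). Asns, which makes asparagine and is a classical ATF4 target, had 418, 426 and 416 CPM in mutant EpiLCs, against 552, 569 and 548 CPM in WT EpiLCs, and 758, 756 and 784 CPM in mutant mESCs, against 896, 848 and 873 CPM in WT mESCs. Mutant and WT libraries were separate in each state. The log2 fold change was -0.41 ± 0.037 (adjusted p = 1.2e-17) in EpiLCs and -0.19 ± 0.036 (adjusted p = 1.91e-05) in mESCs, with a difference of -0.22 ± 0.052 (adjusted p = 0.0012). Gpt2, the mitochondrial alanine aminotransferase, had 162, 155 and 159.5 CPM in mutant EpiLCs, against 216, 207 and 212 CPM in WT EpiLCs, and 169.7, 163 and 167 CPM in mutant mESCs, against 189, 190.2 and 188 CPM in WT mESCs. Its mutant libraries were also below the WT libraries of the same state, with log2 fold changes of -0.41 ± 0.048 (adjusted p = 1.88e-12) in EpiLCs and -0.18 ± 0.048 (adjusted p = 0.00252) in mESCs and a difference of -0.23 ± 0.067 (adjusted p = 0.0129).

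Called in EpiLCs and not in mESCs were Aldh18a1, which starts proline synthesis from glutamate, Pck2, the mitochondrial form of phosphoenolpyruvate carboxykinase, and Cth, which makes cysteine from cystathionine. Aldh18a1 had 107, 104 and 113 CPM in mutant EpiLCs and 122, 135 and 128 CPM in WT EpiLCs, a log2 fold change of -0.25 ± 0.055 (adjusted p = 0.000287). Pck2 had 40.5, 40.5 and 45.1 CPM in mutant EpiLCs and 51.5, 52.01 and 52.5 CPM in WT EpiLCs, at -0.31 ± 0.075 (adjusted p = 0.00118). Cth had 103, 95.9 and 103 CPM in mutant EpiLCs and 116, 114 and 132 CPM in WT EpiLCs, at -0.26 ± 0.058 (adjusted p = 0.000384). For all 3 genes the mutant libraries lay below the WT libraries without overlap, in EpiLCs and also in mESCs. Among all tested genes this held for 16.0% in EpiLCs and 16.4% in mESCs. In mESCs their log2 fold changes were -0.11, -0.15 and -0.049 without a call, and their differences of effects were not called. Pck2 was called lower in mESCs in a fit of the compared groups alone (adjusted p = 0.0447).

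Cbs, the enzyme before Cth in that route, was called in neither state by edgeR but its effects differed between them. It had 19.9, 17.9 and 17.6 CPM in mutant EpiLCs, against 22.7, 20.1 and 25.02 CPM in WT EpiLCs, and 43.9, 45.5 and 40.3 CPM in mutant mESCs, against 36.02, 38.1 and 35.3 CPM in WT mESCs. Mutant values were the lower in EpiLCs and the higher in mESCs, without overlap in either. Its log2 fold change was -0.29 ± 0.11 (adjusted p = 0.0665) in EpiLCs and 0.24 ± 0.094 (adjusted p = 0.0556) in mESCs, and the difference was -0.53 ± 0.15 (adjusted p = 0.00777). Its mESC change was called by limma-voom, in a fit of the compared groups alone and without mutant mESC replicate 3 (adjusted p down to 0.0371), and its EpiLC change without WT EpiLC replicate 2 (adjusted p = 0.0346). Pycr1, the last step of proline synthesis, was at -0.067 in EpiLCs and -0.082 in mESCs, and was not called.

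Of the 7 transporters, 3 were lower in mutant EpiLCs (8.82% of all tested genes) and 2 were higher in mutant mESCs (8.40% of all tested genes). Slc7a1 was called in both. Slc7a1, the cationic amino acid transporter CAT1, had 182, 183 and 174 CPM in mutant EpiLCs, against 238, 229 and 215 CPM in WT EpiLCs. In mESCs it had 338, 317 and 331 CPM with mutant EPOP, against 308, 299 and 277 CPM with WT EPOP. The groups were separate in both states, with mutant values the lower in EpiLCs and the higher in mESCs. On the log2 scale the mutant effect was -0.34 ± 0.046 (adjusted p = 1.6e-09) in EpiLCs and 0.15 ± 0.044 (adjusted p = 0.00587) in mESCs, and the difference was -0.50 ± 0.064 (adjusted p = 3.88e-10). The mESC call was lost without mutant mESC replicate 1 or WT mESC replicate 3, with an adjusted p of up to 0.0834. Slc7a3, the related transporter CAT3, had 169.8, 173 and 179 CPM in mutant mESCs, against 154, 146 and 159.7 CPM in WT mESCs. These groups did not overlap, and the log2 fold change was 0.19 ± 0.051 (adjusted p = 0.00437), against 0.013 ± 0.054 (adjusted p = 0.908) in EpiLCs. Without WT mESC replicate 2 the adjusted p in mESCs was 0.0781.

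Slc7a5 encodes LAT1, the exchanger of large neutral amino acids. It had 686, 677 and 651 CPM in mutant EpiLCs, against 756, 799 and 749 CPM in WT EpiLCs, and 789, 737 and 752 CPM in mutant mESCs, against 789.9, 758 and 710.3 CPM in WT mESCs. The EpiLC groups were separate and the mESC groups overlapped. Mutant over WT, the log2 value was -0.19 ± 0.037 (adjusted p = 2.12e-05) in EpiLCs and 0.013 ± 0.037 (adjusted p = 0.858) in mESCs, with a difference of -0.21 ± 0.052 (adjusted p = 0.00302). Slc3a2, the heavy chain that pairs with LAT1, had 387, 399 and 376 CPM in mutant EpiLCs and 419, 414 and 419 CPM in WT EpiLCs, which did not overlap. Its log2 fold change of -0.11 ± 0.04 (adjusted p = 0.051) in EpiLCs missed the threshold narrowly. It was called lower by limma-voom, with a replicate block and without mutant EpiLC replicate 2 (adjusted p down to 0.0351).

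Slc1a4, a neutral amino acid transporter that carries serine, had 65.5, 73.2 and 68.7 CPM in mutant EpiLCs, against 84.05, 77.8 and 78.5 CPM in WT EpiLCs, and 67.8, 68.2 and 68.6 CPM in mutant mESCs, against 63.7, 61.6 and 54.7 CPM in WT mESCs. Neither pair overlapped, and the order of the groups was opposite in the 2 states. This gave a log2 fold change of -0.22 ± 0.068 (adjusted p = 0.0158) in EpiLCs and 0.18 ± 0.07 (adjusted p = 0.0568) in mESCs, where it did not pass the test, with a difference of -0.40 ± 0.097 (adjusted p = 0.00212). Without WT mESC replicate 1 the mESC change was called (adjusted p = 0.0337). The EpiLC call was lost without mutant EpiLC replicate 1, mutant EpiLC replicate 3 or WT EpiLC replicate 1, with an adjusted p of up to 0.127. It was also the 1 gene of the 33 for which the authors' deposited table gave another call in EpiLCs, not passing 0.05 there. The cystine transporter Slc7a11 and the glycine transporter Slc6a9 were called in neither state. They had log2 fold changes of -0.41 and 0.032 in EpiLCs and -0.22 and -0.025 in mESCs. Ccdc24 covers 27.8% of the exon bases of Slc6a9 on the opposite strand.

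Levels between genes were compared per transcript length, in the authors' deposited TPM (abundance scaled by transcript length and library). Asns stood highest in WT EpiLCs, mutant mESCs and WT mESCs and Atf4 in mutant EpiLCs, with the other of these 2 genes next and Psat1 and Slc7a5 after them in every group. Asns had 459 ± 1.41 TPM in mutant EpiLCs, 625 ± 12.4 TPM in WT EpiLCs, 793 ± 20.8 TPM in mutant mESCs and 929 ± 30.5 TPM in WT mESCs (SD, n = 3 each). Atf4 had 511 ± 4.64 TPM in mutant EpiLCs, 606 ± 23.1 TPM in WT EpiLCs, 576 ± 5.82 TPM in mutant mESCs and 605 ± 16.7 TPM in WT mESCs. In WT EpiLCs the means of these 2 genes differed by less than the SD of Atf4. At the other end Slc7a11 had 1.65 ± 0.517 TPM in mutant EpiLCs, 2.25 ± 0.0712 TPM in WT EpiLCs, 1.02 ± 0.0701 TPM in mutant mESCs and 1.22 ± 0.123 TPM in WT mESCs, with Vldlr next above it. The median of the 33 genes was 52.8 TPM in mutant EpiLCs, 68.7 TPM in WT EpiLCs, 82.1 TPM in mutant mESCs and 78.5 TPM in WT mESCs. The median of all tested genes lay between 17.7 TPM in mutant mESCs and 19 TPM in WT EpiLCs.

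Most of the 33 genes were called between the states in each genotype, and so were most of the tested genes. In mutant cells 11 of the 33 were higher and 18 lower in EpiLCs than in mESCs (33.3% and 54.5%, against 33.4% and 32.6% of all tested genes). In WT cells 11 were higher and 17 lower (33.3% and 51.5%, against 31.7% and 31.0%). The share of higher genes was near the background in both genotypes. In both genotypes 9 genes were higher (27.3%) and 15 lower (45.5%) in EpiLCs, against 27.0% and 26.3% of all tested genes. The median log2 fold change over the 33 was -0.25 in mutant cells and -0.25 in WT cells, against 0.0014 and 0.0064 over all tested genes. These comparisons share libraries with those of mutant against WT, so their values are set side by side and not related.

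Nupr1 had the largest decrease in EpiLCs, at -2.54 ± 0.12 (adjusted p = 8.69e-42) in mutant cells and -2.27 ± 0.11 (adjusted p = 2.2e-40) in WT cells on the log2 scale. Pck2 was at -1.14 in mutant cells and -0.98 in WT cells, Asns at -0.87 in mutant cells and -0.65 in WT cells, and Cbs at -1.23 in mutant cells and -0.69 in WT cells. Atf3 was at -1.28 in mutant cells and -0.47 in WT cells, and Trib3 at -0.99 in mutant cells and -0.36 in WT cells. Psat1, Psph and Shmt2 were also lower in EpiLCs of both genotypes, between -0.57 and -0.37, whereas Mthfd2 was higher, at 0.34 in mutant cells and 0.30 in WT cells. The serine and mitochondrial folate enzymes thus moved in both directions between the states. Ddit4 was the gene with the largest increase in mutant cells, at 1.56 ± 0.073 (adjusted p = 2.19e-42), and stood at 1.26 ± 0.067 (adjusted p = 3.32e-37) in WT cells. For Chac1 the values were 0.56 ± 0.095 (adjusted p = 1.07e-07) in mutant cells and 1.34 ± 0.083 (adjusted p = 3.03e-31) in WT cells, the largest increase there. Stc2 was at 1.35 in mutant cells and 0.51 in WT cells, where its call was lost without WT EpiLC replicate 1. The cystine transporter Slc7a11, at 4.46 to 9.81 CPM, was higher in EpiLCs by 0.61 in mutant cells and 0.80 in WT cells. Its call in mutant cells was lost without mutant EpiLC replicate 3, with an adjusted p of 0.242.

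Atf5 was called in opposite directions, at 0.24 ± 0.059 (adjusted p = 0.000199) in mutant cells and -0.14 ± 0.06 (adjusted p = 0.0306) in WT cells. The WT call was lost without WT mESC replicate 3 or WT EpiLC replicate 3, with an adjusted p of up to 0.0787. Atf4 was lower in EpiLCs than in mESCs in mutant cells, at -0.25 ± 0.039 (adjusted p = 6.29e-09), and in WT cells it was at -0.076 ± 0.039 (adjusted p = 0.0783), which did not pass the test. Genes that were lower in mutant than in WT EpiLCs did not all move one way between the states. Both comparisons use the WT EpiLC libraries, so their values are not independent and are only set side by side. Chac1, Ddit4, Gpt2, Cth, Slc1a4 and Mthfd2 were higher in WT EpiLCs than in WT mESCs, as were 31.7% of all tested genes. Their log2 fold changes of EpiLC over mESC in WT cells were 1.34, 1.26, 0.16, 0.43, 0.41 and 0.30. Trib3, Nupr1, Asns, Pck2, Sesn2 and Slc7a1 were lower there, at -0.36, -2.27, -0.65, -0.98, -0.30 and -0.37. Atf3, Vldlr and Aldh18a1 were also lower there, at -0.47, -0.36 and -0.28, and 31.0% of all tested genes were lower. The calls of Atf3 and Vldlr were lost without WT EpiLC replicate 2, and that of Vldlr also without WT mESC replicate 2. Atf4, Phgdh and Slc7a5 were not called in WT cells.

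**Figure D3:**
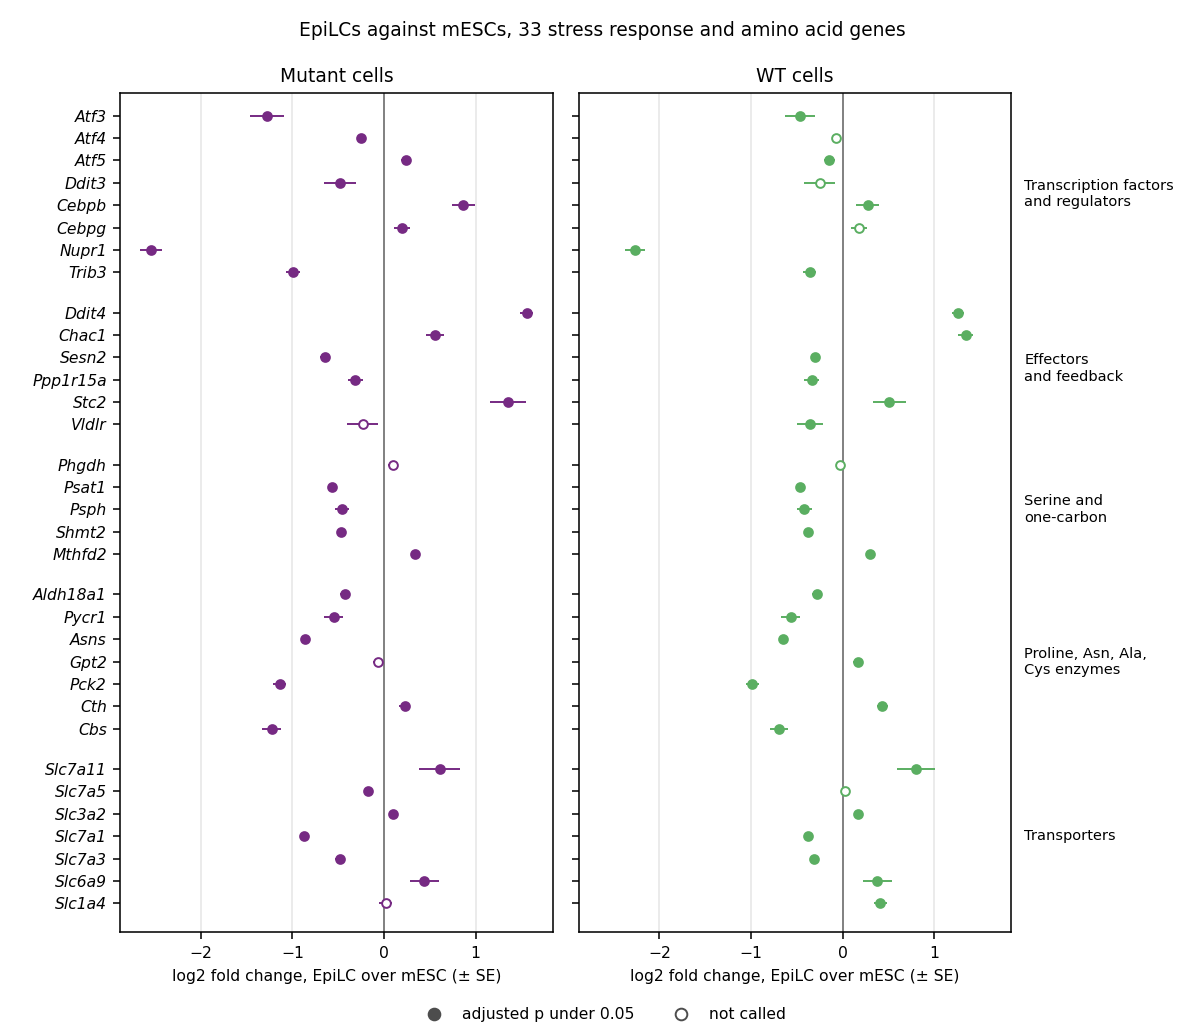
Log2 fold change of EpiLCs over mESCs for each of the 33 genes in mutant cells (left) and WT cells (right), ordered by role, with standard errors; filled points passed an adjusted p of 0.05. Nupr1 lies farthest left in both panels, at -2.54 in mutant cells and -2.27 in WT cells, and Atf5 lies on opposite sides of 0.

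Set beside the promoter letters, 8 of the 10 genes that hold the composite element were lower in mutant EpiLCs and 0 were higher (0 also at an unadjusted p under 0.05, by DESeq2 and by limma-voom). Of the 20 genes whose window lacks it, 8 were lower and 1 was higher. Among all tested genes 8.82% were lower and 7.02% higher. The median log2 fold change in EpiLCs was -0.48 for holders and -0.12 for the others. In mESCs 4 of the 10 holders and 6 of the 20 others were lower, and 1 of the others was higher (10.1% lower and 8.40% higher among all tested genes), with medians of -0.18 for holders and -0.035 for the others. Of the 3 genes without a window, 2 were lower in EpiLCs and 1 was higher in mESCs. Effects in the remaining tested genes that hold the letters were not looked at. Within the holders the effects in EpiLCs reached from -1.21 in Chac1 to -0.067 in Pycr1. The Chac1 and Pycr1 stretches printed above thus hold the same 8 letters, on opposite strands, in genes at either end of that range. Slc7a11, with the element on both strands, was at -0.41 ± 0.2 (adjusted p = 0.161) in EpiLCs, at 50 to 96 counts a library. It had 5.81, 6.09 and 9.75 CPM in mutant EpiLCs, against 9.14, 9.81 and 9.75 CPM in WT EpiLCs. Without mutant EpiLC replicate 3, the highest mutant library, it was called lower (adjusted p = 0.0379). These values are descriptions of a choice of letters and genes made with results known, and no test was made of them.

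**Figure D4:**
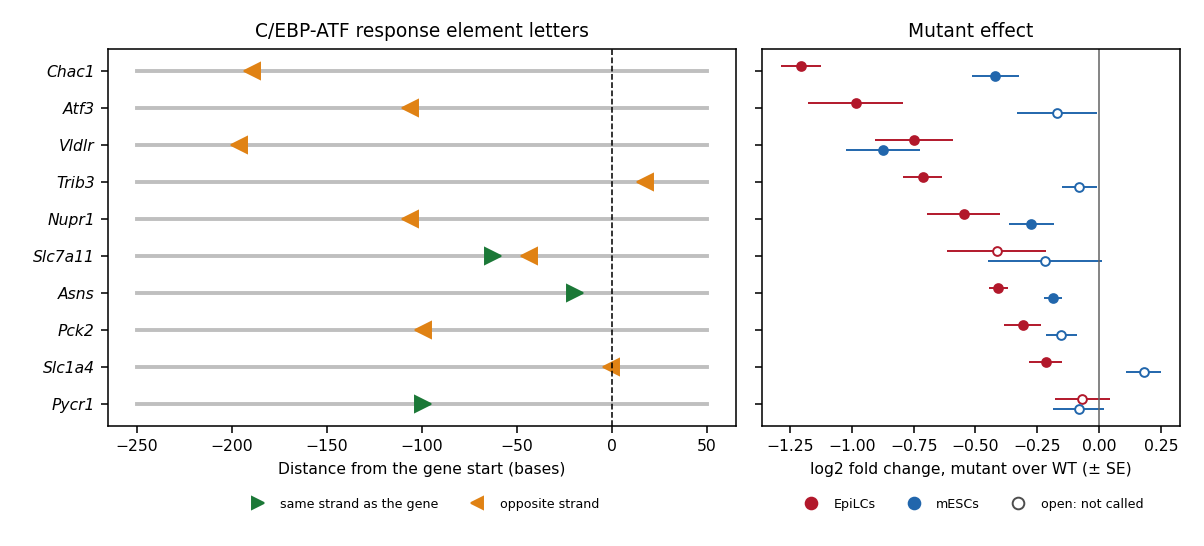
Position of the composite element letters relative to the RefSeq gene start in the 10 genes that hold them (left; arrowheads point along or against the gene), and log2 fold change of mutant over WT with standard errors in EpiLCs and mESCs (right; open points were not called). Genes are ordered by their value in EpiLCs, and matches lie between 200 bases before and 22 bases after the start.

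Genes upstream of ATF4 were looked at as a separate list of 16 eIF2 kinases, eIF2 and eIF2B subunits and their partners. The counts of this list and of those that follow stand against the shares of all tested genes. In EpiLCs 8.82% of all tested genes were lower and 7.02% higher, and in mESCs 10.1% were lower and 8.40% higher. In EpiLCs 4 of the 16 were lower with mutant EPOP and 0 were higher (1 at an unadjusted p under 0.05 with edgeR, 0 by DESeq2, 0 by limma-voom and 1 without mutant EpiLC replicate 2). In mESCs 3 were lower and 1 was higher; the higher one, Eif2b1, was not called by DESeq2 or without any of 5 single libraries (mutant mESC replicates 1 and 2 and WT mESC replicates 1, 2 and 3; adjusted p up to 0.15). The median log2 fold changes were -0.12 in EpiLCs and 0.048 in mESCs. The largest change was in Impact, an imprinted inhibitor of the amino acid sensing kinase GCN2. It had 189.9 ± 8.09 CPM in mutant EpiLCs, against 318 ± 13.8 CPM in WT EpiLCs, and 156 ± 4.22 CPM in mutant mESCs, against 255 ± 8.14 CPM in WT mESCs (SD, n = 3 each). Its log2 fold change was -0.75 (adjusted p = 2.73e-30) in EpiLCs and -0.71 (adjusted p = 2.74e-27) in mESCs. Eif2b5, a subunit of the exchange factor for eIF2, was at -0.15 (adjusted p = 0.0161) in EpiLCs and -0.33 (adjusted p = 1.98e-08) in mESCs. Eif2ak3, the endoplasmic reticulum kinase PERK, had 55.2 ± 4.01 CPM in mutant EpiLCs, against 66.2 ± 4.17 CPM in WT EpiLCs, at -0.26 (adjusted p = 0.00598), and its adjusted p was 0.0759 without mutant EpiLC replicate 2. Ppp1r15b, the constitutive counterpart of Ppp1r15a, was at -0.16 (adjusted p = 0.00495) in EpiLCs, with an adjusted p of 0.0816 without WT EpiLC replicate 1.

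Of 12 tested further genes reported as ATF4 or CHOP targets, 6 were lower in mutant EpiLCs and 0 were higher (0 also at an unadjusted p under 0.05 with edgeR, by DESeq2 and by limma-voom), with a median of -0.38. In mESCs 3 were lower and 2 higher, with a median of -0.059. The higher count there was 1 under 9 of 13 alternatives, among them DESeq2, limma-voom and the loss of mutant mESC replicate 1, 2 or 3 or WT mESC replicate 2. Ndrg1, a stress and hypoxia responsive gene, had 2.63 ± 0.576 CPM in mutant EpiLCs, against 8.84 ± 0.422 CPM in WT EpiLCs, at -1.77 (adjusted p = 1.21e-11). In mESCs it had 17.1 ± 2.45 CPM in mutant mESCs, against 25.8 ± 0.405 CPM in WT mESCs, at -0.59 (adjusted p = 0.000487). Gdf15, a secreted stress hormone, had 11.9 ± 2.35 CPM in mutant EpiLCs, against 18.6 ± 2.88 CPM in WT EpiLCs, at -0.65 (adjusted p = 0.000183). Its values in mESCs were 20.1 ± 2.25 CPM in mutant mESCs, against 28 ± 2.73 CPM in WT mESCs, at -0.47 (adjusted p = 0.0027). The autophagy gene Wipi1 had 7.67 ± 0.325 CPM in mutant EpiLCs, against 13.5 ± 0.964 CPM in WT EpiLCs, at -0.81 (adjusted p = 7.86e-05). All 3 were thus lower in mutant EpiLCs, and Ndrg1 and Gdf15 also in mutant mESCs.

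Of 12 cytosolic tRNA synthetases reported as ATF4 targets, 4 were lower in mutant EpiLCs, with a median of -0.086 over the 12. Aars, the alanyl-tRNA synthetase, had 645 ± 6.51 CPM in mutant EpiLCs, against 758 ± 23.3 CPM in WT EpiLCs, at -0.23 (adjusted p = 7.08e-08). Sars, the seryl enzyme, was at -0.19 (adjusted p = 0.00169) and Nars, the asparaginyl enzyme, at -0.17 (adjusted p = 0.000847) in EpiLCs. In mESCs Aars alone was called, lower at -0.11 (adjusted p = 0.0164), and that call was lost without any of 4 single libraries (mutant mESC replicates 2 and 3 and WT mESC replicates 1 and 2; adjusted p up to 0.14). Of 8 other cytosolic synthetases 0 were lower in either state (0 also at an unadjusted p under 0.05 with edgeR, by DESeq2 and by limma-voom), with medians of 0.0057 in EpiLCs and 0.061 in mESCs. Farsa, a subunit of the phenylalanyl enzyme, was higher in EpiLCs at 0.19 (adjusted p = 0.00394). In mESCs Farsa, at 0.17 (adjusted p = 0.011), and Farsb, its partner subunit, at 0.15 (adjusted p = 0.0178), were higher. These 2 calls became 1 without mutant mESC replicate 1, WT mESC replicate 1 or WT mESC replicate 3 and 0 without WT mESC replicate 2. Whether the lists of synthetases differ was not tested.

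The XBP1 and ATF6 branches, the other arms of the unfolded protein response, held 4 higher and 1 lower of 20 genes in mutant EpiLCs and 2 lower in mutant mESCs. Hspa5, the chaperone BiP, had 874 ± 24.1 CPM in mutant EpiLCs, against 747 ± 27.6 CPM in WT EpiLCs, at 0.23 (adjusted p = 4.16e-07). Syvn1, a ubiquitin ligase of the endoplasmic reticulum, was higher at 0.31 (adjusted p = 0.00221), with an adjusted p of 0.0553 without mutant EpiLC replicate 1. Dnajb9, a target of XBP1, was lower at -0.48 (adjusted p = 0.00517), with an adjusted p of 0.137 without WT EpiLC replicate 2. In mESCs the chaperone Hsp90b1 was lower at -0.14 (adjusted p = 0.00224), and the count of 2 was 1 without mutant mESC replicate 3 and 4 without WT mESC replicate 3. The median of this list in EpiLCs was 0.055, of opposite sign to that of the 33 genes.

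Among 16 other enzymes of folate, glycine and methionine metabolism, 2 were higher and 1 lower in mutant EpiLCs, and 3 higher and 1 lower in mutant mESCs. Amt, of the glycine cleavage system, had 36.6 ± 4.02 CPM in mutant EpiLCs, against 56.6 ± 4.70 CPM in WT EpiLCs, at -0.62 (adjusted p = 5e-11), while Mat2a, which makes S-adenosylmethionine, was higher at 0.15 (adjusted p = 0.00248). Without mutant EpiLC replicate 2 or WT EpiLC replicate 3 the list held 1 higher and 2 lower genes in EpiLCs. In mESCs Gldc and Gcsh, partners in glycine cleavage, were called in opposite directions, Gldc at -0.28 (adjusted p = 5.58e-06) and Gcsh at 0.28 (adjusted p = 1.63e-06). Of 18 other amino acid transporters, 2 were higher and 1 lower in mutant EpiLCs, and 3 higher and 4 lower in mutant mESCs. The glutamine transporter Slc1a5 had 75.7 ± 4.62 CPM in mutant EpiLCs, against 101 ± 8.90 CPM in WT EpiLCs, at -0.41 (adjusted p = 1.42e-08). Slc7a6 and Slc38a1, further carriers of neutral or cationic amino acids, were higher in EpiLCs, Slc7a6 at 0.33 (adjusted p = 5.8e-06) and Slc38a1 at 0.20 (adjusted p = 0.000422). In mESCs the arginine transporter Slc7a2 had 1.05 ± 0.242 CPM in mutant mESCs, against 2.87 ± 0.687 CPM in WT mESCs, at -1.41 (adjusted p = 0.00163), and the aromatic amino acid transporter Slc16a10 was lower at -1.10 (adjusted p = 0.00137). The count of 4 lower genes in mESCs was 2 without WT mESC replicate 2. The medians of both lists lay within 0.083 of 0 in each state.

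**Figure D5:**
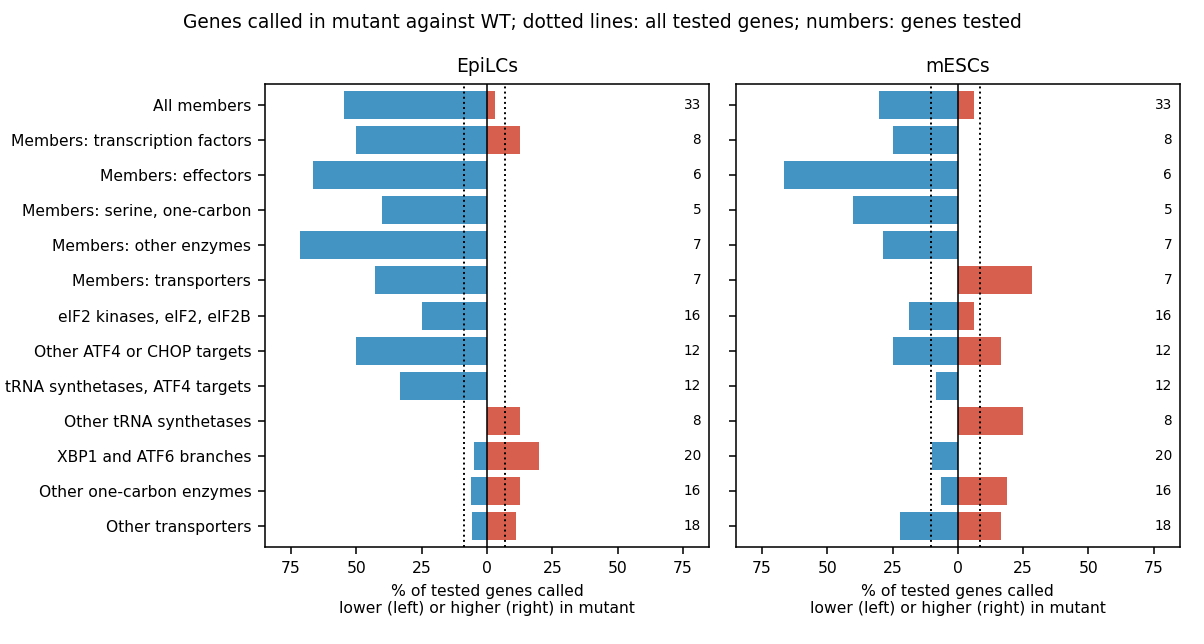
Share of tested genes called higher (right of 0) or lower (left of 0) in mutant against WT EPOP, in EpiLCs and mESCs, for all 33 genes, their 5 role groups and 7 further lists; dotted lines give the share among all tested genes and the number at the right of each row the genes tested. In EpiLCs the bars of the 33 genes and of other reported ATF4 or CHOP targets reach 54.5% and 50.0% lower.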

How the data were processed

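Total RNA from 12 libraries, 3 for each of 4 groups set by the labelled genotype and cell type, was analysed. The authors deposited raw counts per gene, made with build mm10. Tools named in the submitters' processing notes are edgeR 3.18.1, featureCounts (Subread), STAR 2.5.3a and FastQC 0.11.2. The authors' deposited TPM were used for levels between genes only. The CPM columns deposited by the authors, treated as a score, gave no result. Log2 fold changes and p-values in the authors' deposited table, which lacks mutant against WT in mESCs, gave 32 of 33 genes the same call as here in each of 3 comparisons.

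Of 19656 features, 26 carry spreadsheet dates in place of symbols (0.182 to 0.212% of counts) and were left out. After filterByExpr, 13879 genes were tested in 1 fit to the 12 libraries with edgeR 4.0.16 (quasi-likelihood test, TMM factors of 0.984 to 1.01, R 4.3.3). Benjamini-Hochberg adjustment ran over these genes within each of 5 comparisons, and a gene was called at an adjusted p under 0.05. CPM are from effective library sizes, and standard errors are the log2 fold change over the square root of the F statistic. Nothing in the labels makes the replicates separate cultures, and p-values therefore measure the spread between libraries alone, which may be technical. Replicate pairs differed beyond sampling noise, at a chi-square of 1.90 to 2.97 per degree of freedom. The steps were tested on simulated data with 200 changed genes.

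The 33 genes, the further lists, the promoter letters and the tests were chosen with earlier results of these data known, and lists were written from general knowledge. Per-library values are given for genes called in mutant against WT or in the difference of effects, and for Atf4; from other lists, at most 3 called genes with the largest change are named. Promoters were matched by symbol to RefSeq windows of GRCm38.p6, and exon overlaps were taken from GENCODE M21 with bedtools 2.31.1, pandas 2.3.3 and Python 3.11.15. Alternatives were relative log expression (RLE) size factors, DESeq2 1.42.0, limma-voom (limma 3.58.1), a fit of the compared groups alone, each library left out, a replicate block, and other filters on low counts.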

Additional observations from a re-analysis of the deposited data

Results flagged for a closer look

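In 15 of the 33 genes the effect of mutant EPOP differed between EpiLCs and mESCs by the interaction test (edgeR quasi-likelihood, adjusted p under 0.05 over all tested genes), where 9.73% of all tested genes did so in either direction. Differences are given as the log2 effect in EpiLCs minus that in mESCs. The effect was further towards lower expression in EpiLCs for Atf3 at -0.81, Chac1 at -0.79, Trib3 at -0.63, Cbs at -0.53, Slc7a1 at -0.50, Slc1a4 at -0.40, Sesn2 at -0.34, Gpt2 at -0.23, Asns at -0.22, Slc7a5 at -0.21 and Atf4 at -0.18. It was further towards higher expression in EpiLCs for Stc2 at 0.84, Cebpb at 0.59, Atf5 at 0.38 and Ddit4 at 0.29. In the EpiLC comparison, summed markers of naive cells, endoderm and 2-cell-like cells were also lower with mutant EPOP and those of the formative epiblast, neuroectoderm, trophoblast and fibroblasts higher. In mESCs those of naive cells, endoderm, neuroectoderm, 2-cell-like cells and fibroblasts were lower and those of mesoderm higher, in each case without overlap of the groups, and their part in these differences was not tested. Single markers did not all follow these sums. In mESCs 2 of 12 naive markers were called lower and 1 higher, and 1 of 7 endoderm markers was called lower. Of tested markers, 2 of 4 neuroectoderm, 5 of 5 2-cell-like and 1 of 4 fibroblast genes were also lower there. Of 4 mesoderm markers 1 was higher. All tested genes were 10.1% lower and 8.40% higher in mESCs. In EpiLCs 11 of 12 naive, 4 of 7 endoderm and 4 of 5 2-cell-like markers were called lower. Of 9 formative markers 6 were called higher and 2 lower. Of 4 tested genes each, 2 neuroectoderm, 1 fibroblast and 0 trophoblast markers were higher. All tested genes were 8.82% lower and 7.02% higher there. The difference was called under every alternative for 10 of the 15 and was lost under at least 1 for Atf3, Atf4, Cebpb, Ddit4 and Stc2.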

How the results depend on the processing

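No call among the 33 genes changed direction under any alternative. Calls that held under every alternative numbered 16 of 19 for mutant against WT in EpiLCs, 8 of 12 in mESCs and 10 of 15 for the difference of effects. Between the states they were 24 of 29 in mutant cells and 22 of 28 in WT cells. With single libraries left out, the genes called higher numbered 1 to 3 in mESCs (against 2 with all libraries) and 2 to 4 for the difference of effects (against 4). The other counts stayed within 1.5 times. Of 60 calls of genes from other lists, 19 were lost under at least 1 alternative and 0 reversed. Same-numbered libraries did not deviate together (r from -0.107 to 0.179 in 18 pairs, 2 of them over 0.1; other pairs -0.158 to 0.154), and 5 of 12 libraries correlated best with their own number, so the numbers were not taken as pairs. With a replicate block, the EpiLC comparison had 19 genes lower in place of 18, EpiLCs against mESCs in mutant cells 10 higher in place of 11, and the other counts of called genes were the same. At 7714164 to 10652151 counts a library, precision was lowest for the genes with the lowest counts: the standard error for Slc7a11 was 0.20 in EpiLCs and 0.23 in mESCs, and that for Asns 0.037 in EpiLCs and 0.036 in mESCs.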

Other observations

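Other stress and nutrient lists are set beside the shares of all tested genes. Those shares were 8.82% lower and 7.02% higher in mutant EpiLCs, and 10.1% lower and 8.40% higher in mutant mESCs. Of 13 genes for HIF1 and its targets, 3 were lower and 2 higher in mutant EpiLCs, and 5 were lower and 1 higher in mutant mESCs. Vegfa, the angiogenic growth factor, had 30.1 ± 2.30 CPM in mutant EpiLCs, against 40 ± 1.35 CPM in WT EpiLCs, at -0.41 (adjusted p = 0.000173), and Egln3, an oxygen-sensing hydroxylase, had 42.2 ± 1.46 CPM in mutant EpiLCs, against 60.5 ± 4.83 CPM in WT EpiLCs, at -0.52 (adjusted p = 2.88e-06). Car9, a carbonic anhydrase and the called gene of this list with the largest change in EpiLCs, had 8.29 ± 1.15 CPM in mutant EpiLCs, against 4.03 ± 0.679 CPM in WT EpiLCs, at 1.04 (adjusted p = 0.00221). Pdk1, which restrains pyruvate entry into mitochondria, had 139 ± 6.08 CPM in mutant mESCs, against 87.3 ± 2.13 CPM in WT mESCs, at 0.67 (adjusted p = 1.01e-21), and in EpiLCs it was lower, at -0.34 (adjusted p = 4.17e-10). The list held calls in both directions in each state. Its median was -0.103 in EpiLCs and -0.416 in mESCs, where that of the 33 genes was -0.080. Pfkfb3 and P4ha1 were among the 5 lower genes in mESCs. The Pfkfb3 call was lost without mutant mESC replicate 3 or WT mESC replicate 2, with an adjusted p of up to 0.101. The higher count in mESCs was 2 without mutant mESC replicate 2.

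Of 11 genes for NRF2 and its targets, 3 were higher and 2 lower in mutant EpiLCs, and 2 were higher and 2 lower in mutant mESCs. The 3 became 1 without mutant EpiLC replicate 1, WT EpiLC replicate 2 or WT EpiLC replicate 3. In mESCs 1 gene was higher without mutant replicate 1 or 2 or WT replicate 2 or 3, and 1 was lower without mutant replicate 2 or 3 or WT replicate 1. Nqo1, a quinone reductase, had 61.7 ± 0.702 CPM in mutant EpiLCs, against 77.1 ± 2.12 CPM in WT EpiLCs, at -0.32 (adjusted p = 5.02e-05), and Srxn1, which repairs peroxiredoxins, was lower in both states, at -0.26 (adjusted p = 0.00289) in EpiLCs and -0.28 (adjusted p = 0.00122) in mESCs. Of 14 genes for p53 and its targets, 4 were higher in mutant EpiLCs (1 by DESeq2 or without WT EpiLC replicate 2, and 2 without mutant EpiLC replicate 1 or WT EpiLC replicate 1), and 3 were higher and 2 lower in mutant mESCs. The 3 became 1 without mutant mESC replicate 1 or WT mESC replicate 3, and the 2 became 1 without mutant mESC replicate 1 or 3 or WT mESC replicate 2 or 3. In mESCs Rrm2b, a ribonucleotide reductase subunit, was lower at -0.53 (adjusted p = 0.0265), with an adjusted p of up to 0.234 over the alternatives, and the kinase gene Plk2 was higher at 0.34 (adjusted p = 0.00275). Cdkn1a, the cell cycle inhibitor p21, had 173 ± 2.07 CPM in mutant mESCs, against 203 ± 10.1 CPM in WT mESCs, at -0.23 (adjusted p = 0.000249). In EpiLCs it was higher, at 0.15 (adjusted p = 0.0427), and the difference of its effects was 0.38 (adjusted p = 5.94e-05). Of 8 genes of the cytosolic heat shock response, 2 were lower in mutant EpiLCs and 0 were higher (0 also at an unadjusted p under 0.05). The median of that list in EpiLCs was -0.149, and the 2 became 1 under 4 of 13 alternatives. In mutant mESCs 1 was higher and 0 were lower (1 under 1 of 13 alternatives), with a median of -0.0455. The heat shock protein gene Hspb1 had 93.3 ± 3.56 CPM in mutant EpiLCs, against 119 ± 1.13 CPM in WT EpiLCs, at -0.35 (adjusted p = 3.42e-08), and 349.6 ± 6.58 CPM in mutant mESCs, against 263 ± 1.50 CPM in WT mESCs, at 0.41 (adjusted p = 7.06e-14), with calls in opposite directions. Of 12 genes of mTORC1 nutrient sensing, 1 was higher in mutant EpiLCs and 2 in mutant mESCs (1 by DESeq2, with a filter on mean CPM, or without mutant mESC replicate 1 or 3 or WT mESC replicate 2 or 3). Rragd, a GTPase that couples amino acids to mTORC1, had 36.9 ± 2.68 CPM in mutant EpiLCs, against 25.9 ± 1.04 CPM in WT EpiLCs, at 0.51 (adjusted p = 2.46e-05), and Flcn, which acts on that GTPase, had 47.2 ± 1.58 CPM in mutant mESCs, against 38.05 ± 0.354 CPM in WT mESCs, at 0.31 (adjusted p = 0.00459).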
